A study of Mus musculus with 30 samples.

Results

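The effect of the eIF2B activator 2BAct on mice with an intact target was taken from 6 cerebellum libraries of female WT mice, 3 from mice fed 2BAct (WT + 2BAct) and 3 from mice fed placebo (WT + placebo), out of 30 libraries in the series. They were chosen by genotype and diet alone. All 6 mice carried both WT copies of Eif2b5 on a C57BL/6J background. Their R191H counterparts, homozygous for the arginine-to-histidine mutation of the eIF2B epsilon subunit, were used only as a scale (3 libraries on each diet). By the labels the mice were 2 months old and had been on the diet for 1 month, with 2BAct given orally in rodent meal at 300 µg per gram of meal. Placebo was the same meal without the compound, which the labels call vehicle. The series also profiled untreated males, which were not compared here. The labels name no batch, litter or cage, and the study's methods state 3 females per condition, so each library is taken as 1 mouse. If any were not, the p-values measure the spread between libraries alone.

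eIF2B is the guanine nucleotide exchange factor that reloads the initiation factor eIF2 with GTP, so that the initiator tRNA can be carried to the ribosome. When its activity falls short, either because stress kinases phosphorylate eIF2 or because eIF2B itself is mutated, translation of most messages drops, while the transcription factor ATF4 is made in larger amounts and switches on the integrated stress response (ISR), a program of amino acid transport, amino acid synthesis, tRNA charging and stress regulators. Small-molecule activators hold eIF2B in its active decameric form. The comparison asks whether such an activator alters any transcript when eIF2B is not impaired, and how large an alteration these libraries would still allow.

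The 6 libraries held 12983649 to 17044673 unique reads, that is, reads that the authors' software assigned to a single gene. Of the 10512 genes listed, 10054 had enough reads to be tested. Pearson correlations of log2 CPM (unique reads scaled to the same library total) were 0.987 to 0.991 between libraries on the same diet and 0.987 to 0.990 between libraries on different diets. Hierarchical clustering cut into 2 clusters put WT + 2BAct replicate 1 with WT + placebo replicate 3, and the other 4 libraries together. This pair also had the highest levels of Slc17a6, the vesicular glutamate transporter of brainstem and midbrain neurons, at 97.0 and 90.9 CPM against 33.4 to 58.3 CPM in the rest. In bulk tissue, fewer cells of a type and less RNA per cell cannot be told apart. The second principal component, with 20.9% of the variance, placed the 3 2BAct libraries on one side of 0 and the 3 placebo libraries on the other, whereas the first (24.9%) did not. The second was carried mainly by WT + 2BAct replicate 1 (0.67) and WT + placebo replicate 3 (-0.62). The other 4 libraries lay between -0.22 and 0.23. A cut into 3 clusters also separated replicate 1 of WT + 2BAct from replicate 3 of WT + placebo.

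No gene passed the threshold between WT + 2BAct and WT + placebo. By edgeR's quasi-likelihood test 0 of 10054 genes had a Benjamini-Hochberg adjusted p under 0.05 (0%), and the smallest adjusted p was 0.922. At an unadjusted p under 0.05 there were 353 genes (3.51%), of which 183 were higher (1.82%) and 170 lower (1.69%) with 2BAct. DESeq2 and limma-voom on the same reads also called 0 genes, with 268 and 369 at an unadjusted p under 0.05. On the authors' abundances, natural logs of TPM, a length-normalised abundance, that also use shared reads, limma called 34 genes. In 32 of them a whole diet group stood at the same value, -1.2, which is not the lowest of the scale. Without genes at that value limma called 0. In 902 genes (8.97%) the 3 libraries of one diet lay entirely above or below the 3 of the other, 463 above and 439 below. The median log2 fold-change over all tested genes was 0.0027, the median size of the log2 fold-change was 0.08, and 91.2% of genes had an estimate within 0.32 of 0 on the log2 scale.

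The intervals say how much room is left. For 9201 of the 10054 genes (91.5%) the 95% interval of the log2 fold-change lay inside 2-fold in either direction, for 7649 (76.1%) inside 1.5-fold, and for 4792 (47.7%) within 0.32 of 0 on the log2 scale. The median half-width was 0.24 on the log2 scale, a factor of 1.18. With Bonferroni intervals, which are meant to hold for all tested genes at once, 6168 genes (61.3%) were still bounded within 2-fold and 2355 (23.4%) within 1.5-fold. The narrowest intervals belonged to the abundant transcripts Mycbp2, a ubiquitin ligase (log2 fold-change -0.01, interval -0.14 to 0.11), Slc38a1, a glutamine transporter (-0.02, -0.14 to 0.10), and Purb, a nucleic acid-binding protein (0.02, -0.10 to 0.15). The widest were those of Pdlim5, Hmga1 and Sin3a, all below 1 CPM, with half-widths of 2.15, 1.86 and 1.68.

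The bound depended on abundance. Of the 237 tested genes with a mean below 1 CPM, 2.11% were bounded within 2-fold. This share was 59.5% of the 1463 genes from 1 to 4 CPM, 99.1% of the 2497 from 4 to 16 CPM and 99.9% of the 3424 from 16 to 64 CPM. Above 64 CPM the median half-width was 0.16 (1975 genes up to 256 CPM) and 0.14 (458 genes above that), and 95.8% and 96.5% of these genes were bounded within 0.32 on the log2 scale.

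**Figure D1:**
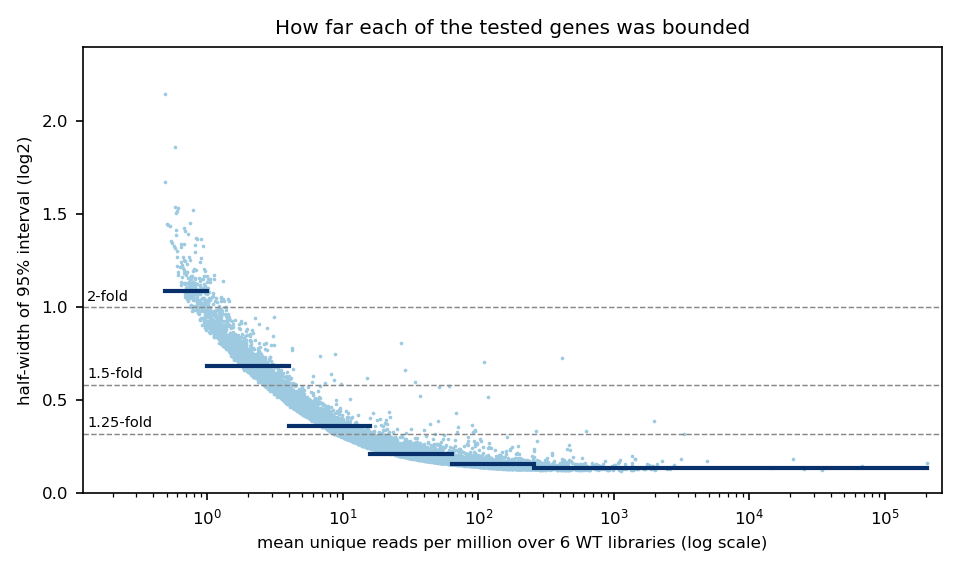
Half-width of the 95% interval of the log2 fold-change (2BAct over placebo, WT, vertical axis, log2) against the mean CPM of unique reads over the 6 libraries (horizontal axis, log scale), 1 point per tested gene. Dark bars are the medians of 6 abundance classes, which run from 1.09 below 1 CPM to 0.14 above 256 CPM, and dashed lines mark 2-fold, 1.5-fold and a log2 value of 0.32.

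The ISR is where an eIF2B activator would be looked for first. The study's targeted panel holds 15 ATF4-dependent transcripts, of which 8 are listed in the table and 7 could be tested: Atf4 itself and the transcription factors Atf5 and Ddit3 (CHOP), the pseudokinase Trib3, the eIF2 phosphatase subunit Ppp1r15a (GADD34), asparagine synthetase (Asns) and the amino acid transporter subunit Slc7a5 (LAT1). Eif4ebp1, the translational repressor 4E-BP1, had 0 unique reads in all 6 libraries, and its abundance of 0.00501 to 0.0206 TPM on placebo and 0.0251 to 0.0429 TPM on 2BAct rests on shared reads, so it was not tested. Atf3, Chac1, Gadd45a, Mthfd2, Sesn2, Slc1a4 and Slc1a5 were not analysed here. ATF4 binds with C/EBP partners to a composite element, searched here as TGATGNAA on both strands of the window of 300 bases around each transcription start (RefSeq promoters, GRCm38.p6). This string occurs in 3.97% of 32851 promoters and in 2 of the 6 tested panel members with a promoter entry (Asns and Trib3). Of the 16 genes that passed the interaction test described below, 13 had a promoter entry and 3 held the string (23.1%). These were Trib3, Slc7a11 and Nupr1, the last 2 taken up below as ISR genes outside the panel. The 4 windows, all on the minus strand, are printed 5′ to 3′ with the matches to the searched string in capitals. Whether ATF4 binds at these matches was not tested. They start 23 bases before the transcription start in Asns, 110 in Nupr1, and 66 and 47 in Slc7a11. The Trib3 match stands at -14 on this count, that is, downstream of the start. Asns lies at chr6:7693160-7693459, Trib3 at chr2:152344011-152344310, Slc7a11 at chr3:50443564-50443863 and Nupr1 at chr7:126625421-126625720.
Asns: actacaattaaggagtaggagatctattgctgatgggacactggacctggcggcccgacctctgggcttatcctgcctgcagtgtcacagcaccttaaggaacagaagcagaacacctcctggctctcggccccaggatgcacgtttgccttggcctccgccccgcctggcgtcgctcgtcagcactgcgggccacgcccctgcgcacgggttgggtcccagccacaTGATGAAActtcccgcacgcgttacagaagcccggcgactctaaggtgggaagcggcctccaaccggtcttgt
Trib3: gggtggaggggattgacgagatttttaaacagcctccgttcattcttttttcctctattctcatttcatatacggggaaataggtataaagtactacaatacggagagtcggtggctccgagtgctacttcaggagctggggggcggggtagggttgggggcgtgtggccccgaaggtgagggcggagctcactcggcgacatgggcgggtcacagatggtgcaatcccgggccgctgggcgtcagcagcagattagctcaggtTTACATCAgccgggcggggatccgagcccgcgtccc
Slc7a11: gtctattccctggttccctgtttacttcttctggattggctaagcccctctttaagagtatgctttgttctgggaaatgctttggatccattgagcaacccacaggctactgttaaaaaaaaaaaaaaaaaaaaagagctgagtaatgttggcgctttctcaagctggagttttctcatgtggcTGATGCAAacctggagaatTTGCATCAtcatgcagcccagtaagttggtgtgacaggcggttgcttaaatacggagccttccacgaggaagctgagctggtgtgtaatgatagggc
Nupr1: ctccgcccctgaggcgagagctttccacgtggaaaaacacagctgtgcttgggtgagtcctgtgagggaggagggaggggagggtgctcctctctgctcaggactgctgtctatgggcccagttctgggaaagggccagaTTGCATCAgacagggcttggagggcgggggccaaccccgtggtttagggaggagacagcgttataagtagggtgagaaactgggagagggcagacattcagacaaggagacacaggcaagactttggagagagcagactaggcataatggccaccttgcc

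None of the 7 panel members passed the threshold in WT mice, which also held for all 10054 tested genes. The diets overlapped in all 7, where 8.97% of all genes did not overlap, so neither count sets the panel apart. Their unadjusted p-values by edgeR ran from 0.502 to 0.98. Atf5 (chromosome 7, 44812256 to 44816658, GRCm38) stood at 11.9, 8.37 and 9.79 CPM on placebo and at 7.16, 11.7 and 9.35 CPM on 2BAct. The groups overlapped, and the log2 fold-change was -0.08 with a 95% interval of -0.47 to 0.30. Slc7a5 (chromosome 8, 121881150 to 121907694) had 72.8, 76.9 and 75.1 CPM on placebo and 68.6, 88.8 and 66.5 CPM on 2BAct. Its placebo values all lay between the lowest and the highest 2BAct value, and the log2 fold-change of -0.01 was bounded at -0.20 and 0.19, that is, from 0.868-fold to 1.14-fold. Trib3 (chromosome 2, 152337422 to 152344032), the lowest of the panel's log2 fold-changes, had 1.39, 1.15 and 1.03 CPM on placebo against 1.11, 1.12 and 0.703 CPM on 2BAct. Its interval, -1.16 to 0.59 around -0.28, was the only one of the 7 that reached beyond 2-fold.

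Ddit3, which encodes the pro-apoptotic factor CHOP, measured 6.52, 8.89 and 6.70 CPM on placebo and 6.84, 6.01 and 10.5 CPM on 2BAct (log2 fold-change 0.08, -0.36 to 0.52). Asns measured 6.66, 9.58 and 9.02 CPM and 10.3, 7.54 and 8.85 CPM (0.07, -0.30 to 0.45). Both overlapped between the diets. Atf4 transcript measured 110, 104 and 119 CPM on placebo and 111.7, 121 and 100 CPM on 2BAct, with a log2 fold-change that rounds to 0 (-0.17 to 0.17). ATF4 is controlled mainly at translation, which these libraries do not read. Ppp1r15a, which directs phosphatase to eIF2 and so ends the response, measured 1.46, 1.62 and 0.708 CPM against 1.27, 1.47 and 1.41 CPM (0.13, -0.71 to 0.97). Over the panel 3 of 7 members were higher, the median log2 fold-change was -0.0021, and 6 of 7 intervals lay inside 2-fold, where all tested genes had a median of 0.0027 and 91.5%.

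The same genes in the R191H mice give a scale for these bounds. Between R191H + 2BAct and R191H + placebo the log2 fold-change was -2.42 for Atf5, -2.60 for Trib3, -1.52 for Slc7a5 and -1.12 for Ddit3, each outside the WT interval of that gene. In that comparison 66 of 10092 genes passed the threshold (0.654%). For Atf4 (-0.22) the R191H estimate also lay just outside the WT interval, for Asns (-0.42) it lay outside as well, on the lower side, and for Ppp1r15a (-0.05) inside. Between R191H + placebo and WT + placebo, which uses the same 3 WT + placebo libraries, the values were 2.87, 3.16, 1.57 and 1.3 for Atf5, Trib3, Slc7a5 and Ddit3, and 78 of 10079 genes passed (0.774%).

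**Figure D2:**
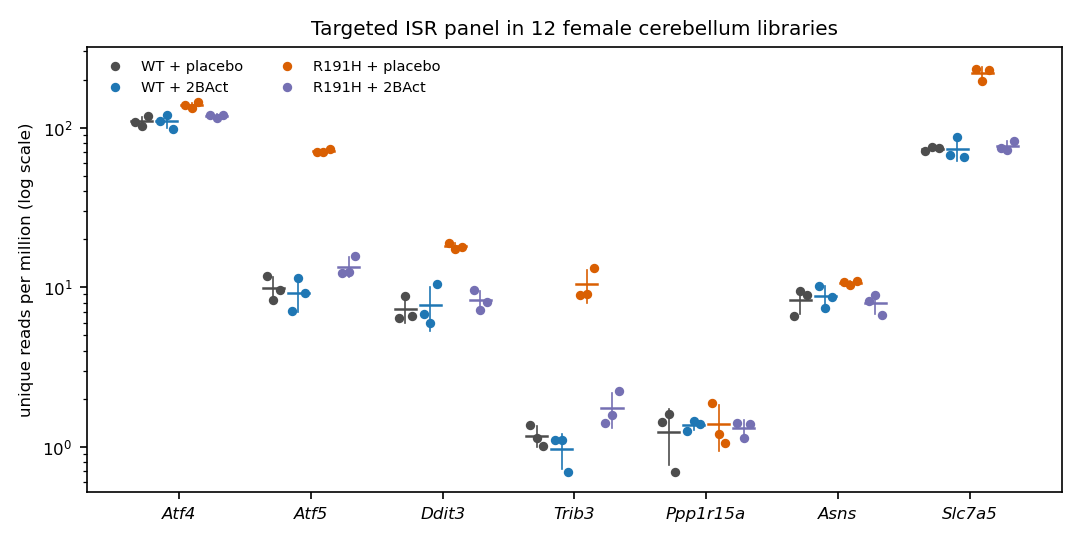
CPM of unique reads (vertical axis, log scale, 12 libraries scaled together) of the 7 tested panel genes, with 1 point per library, horizontal bars for the mean and vertical bars for the SD of 3 libraries. The WT + placebo and WT + 2BAct points overlap in all 7 genes, while Atf5 stands at 70.7 to 73.4 in R191H + placebo against 7.06 to 11.5 in WT + 2BAct.

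The diet effect was tested for a difference between the genotypes as an interaction over the 12 female libraries. Of 10200 genes, 16 passed (0.157%), among them Atf5 (R191H minus WT, log2 difference -2.34, adjusted p = 3.25e-07), Slc7a5 (-1.52, 3.25e-07) and Trib3 (-2.31, 0.026), while Ddit3 (-1.2, 0.0678), Asns, Atf4 and Ppp1r15a did not. Of the others, Slc7a11, the cystine transporter xCT, had 64.7, 64.1 and 76.5 CPM on placebo and 75.2, 75.6 and 70.7 CPM on 2BAct in WT (log2 fold-change 0.11, -0.07 to 0.28), against -1.28 in R191H. Nupr1, a stress-induced chromatin protein, had 2.29, 1.44 and 1.74 CPM against 1.51, 3.70 and 2.04 CPM in WT (0.43, -0.33 to 1.18), against -2.21 in R191H. In WT mice 14 of these 16 genes were bounded within 2-fold, the exceptions being Nupr1 and Trib3. Slc7a11, Nupr1 and the other genes named from this test were chosen after their values were seen.

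The wider ISR lists had medians close to that of all genes. Of the 69 curated ISR targets 36 could be tested, 15 were higher, the median log2 fold-change was -0.01, 4 were at an unadjusted p under 0.05 (11.1%, against 3.51% of all genes) and 32 were bounded within 2-fold. The highest was Psat1, phosphoserine aminotransferase, with 0.971, 0.462 and 0.773 CPM on placebo and 0.795, 1.68 and 0.562 CPM on 2BAct (0.49, -0.58 to 1.56). The lowest was Tsc22d3, the glucocorticoid-induced leucine zipper, with 12.1, 9.69 and 18.8 CPM against 9.39, 9.08 and 9.70 CPM (-0.52, -0.93 to -0.12). Its placebo libraries spread over a wide range that reached down to the 2BAct values. Of the 95 genes of the CLIC-derived signature, a co-expression module that the study grew from genes raised in R191H cerebellum, 59 could be tested, with 25 higher, a median of -0.02 and 53 bounded within 2-fold.

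Amino acid and tRNA synthetase genes, the main metabolic arm of the ISR, held the gene of smallest p among the lower ones. Phgdh (chromosome 3, 98313170 to 98339990), 3-phosphoglycerate dehydrogenase and the entry step of serine synthesis, had 52.3, 52.6 and 53.4 CPM on placebo and 45.5, 41.9 and 34.6 CPM on 2BAct. The 3 placebo libraries lay within 1.1 CPM of each other and above all 2BAct libraries, and the log2 fold-change was -0.38 (-0.58 to -0.18, unadjusted p = 0.000862 and adjusted p = 0.999 by edgeR's quasi-likelihood test). Psph, phosphoserine phosphatase and the last step of the same pathway, had 9.02, 11.1 and 12 CPM against 9.39, 7.96 and 6.32 CPM (-0.44, -0.81 to -0.08). The groups overlapped by 1 library. Psat1, the phosphoserine aminotransferase given above, belongs to the same pathway and list. Its estimate was higher on 2BAct (0.49), with an interval that included 0. At the other end of the list, Adi1, an enzyme of methionine salvage, had 1.11, 1.5 and 0.258 CPM against 1.75, 1.96 and 2.11 CPM (1.01, 0.06 to 1.96). Of the 18 tested members 5 were higher, the median was -0.03, 0 passed the threshold, and 3 were at an unadjusted p under 0.05 (16.7%, against 3.51% of all genes). This count was 1 without WT + placebo replicate 3 or WT + 2BAct replicate 3, and the number higher was 9 of 19 without the former. Phgdh and Psph are also members of the curated ISR targets and the CLIC-derived signature, so the counts of these lists are not independent.

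The 5 eIF2B subunits, the target of the compound, did not pass the threshold at the transcript level, and neither did any other gene. Eif2b5 (chromosome 16, 20498817 to 20509323), which encodes the catalytic epsilon subunit, had 60.6, 64.5 and 70.4 CPM on placebo and 65.1, 65.5 and 66.8 CPM on 2BAct (log2 fold-change 0.01, -0.15 to 0.18). All 2BAct values lay inside the placebo range. Eif2b1, the alpha subunit, had 16, 16.7 and 19.4 CPM against 16.7, 14.9 and 16.6 CPM (-0.11, -0.37 to 0.14). Eif2b3, the gamma subunit, had 3.74, 4.39 and 5.15 CPM against 5.09, 5.03 and 4.08 CPM (0.09, -0.37 to 0.56). The regulatory subunits Eif2b2 (beta) and Eif2b4 (delta) were bounded least, since each had under 2 CPM of unique reads. Eif2b2 had 0.832, 1.04 and 1.42 CPM against 1.27, 0.838 and 1.55 CPM (0.15, -0.73 to 1.02), and Eif2b4 had 1.11, 1.85 and 1.42 CPM against 0.954, 1.12 and 1.97 CPM (-0.12, -0.95 to 0.71). The smallest unadjusted p of the 5 was 0.366.

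The list of eIF2 subunits, kinases and phosphatase also held the genes Eif2a, Eif2d and Eif5. Of its 13 genes 10 could be tested, 4 were higher, and all 10 were bounded within 2-fold. Eif2s1 encodes the alpha subunit that the stress kinases phosphorylate, and had 52.0, 54.6 and 57.8 CPM on placebo and 51.2, 51.0 and 57.8 CPM on 2BAct (-0.04, -0.22 to 0.14). Eif2s2, the beta subunit, was the 1 of 10 members whose groups did not overlap (10%, against 8.97% of all genes), with 2.84, 3.64 and 2.58 CPM against 4.06, 3.70 and 4.08 CPM (0.38, -0.14 to 0.90, unadjusted p = 0.145). Eif2s3x, the gamma subunit, was bounded at -0.14 and 0.13. Among the kinases, the heme-regulated Eif2ak1 (HRI) was bounded at -0.16 and 0.15, the endoplasmic reticulum kinase Eif2ak3 (PERK) at -0.38 and 0.81 around 0.21, and the amino acid sensor Eif2ak4 (GCN2) at -0.95 and 0.24 around -0.35. Ppp1ca, the catalytic phosphatase subunit, was bounded at -0.13 and 0.15. Eif2a, a gene distinct from Eif2s1, was bounded at -0.37 and 0.28, and Eif2d at -0.35 and 0.20. The interferon-induced kinase Eif2ak2 and Eif5 were not analysed here, and Ppp1r15b had too few unique reads.

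**Figure D3:**
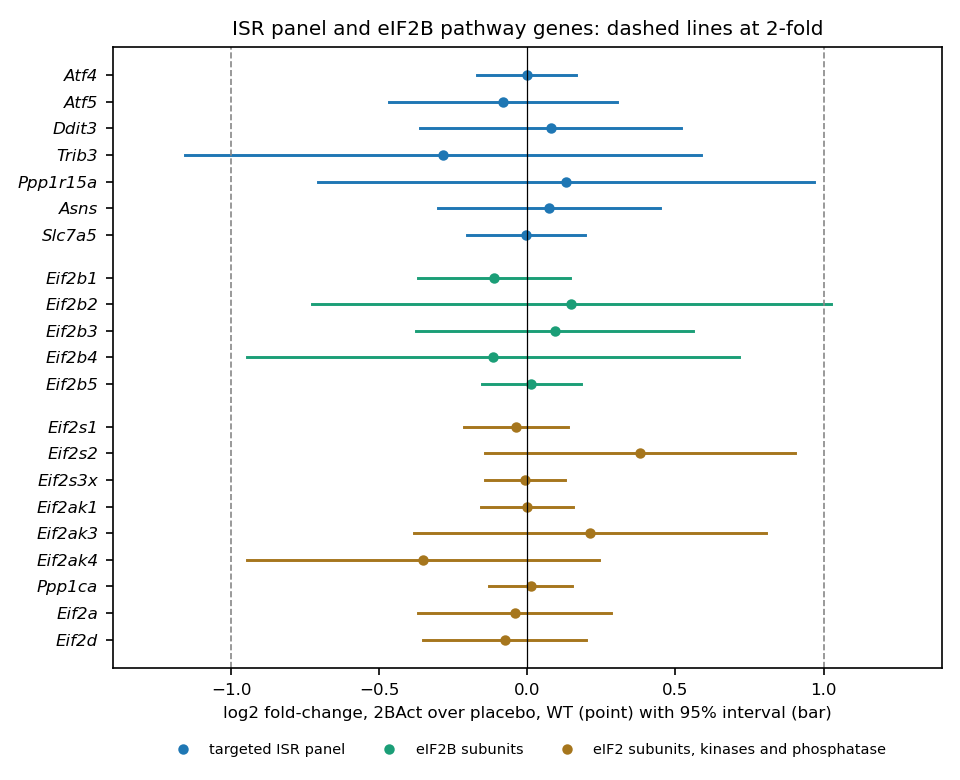
Log2 fold-change of 2BAct over placebo in WT mice (points) with its 95% interval (bars, horizontal axis, log2) for the tested members of the ISR panel, the eIF2B subunits and the eIF2 list, with Ppp1r15a drawn once. Dashed lines mark 2-fold, which only the intervals of Trib3 and Eif2b2 cross.

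Other stress programs gave small medians. Of the IRE1 and ATF6 targets, the arms of the unfolded protein response that do not run through eIF2, 28 were tested, 11 were higher, 0 were at an unadjusted p under 0.05 and 26 were bounded within 2-fold, with a median log2 fold-change of -0.03. They ran from Manf, a secreted chaperone-like factor (3.61, 3.40 and 4.12 CPM against 2.47, 3.49 and 2.88 CPM, -0.33), to Herpud1, a component of endoplasmic reticulum degradation (2.08, 1.04 and 1.16 CPM against 2.70, 0.838 and 1.41 CPM, 0.21). Both overlapped between the diets. Of 9 cytosolic heat shock genes 3 were higher, from the co-chaperone Fkbp4 (-0.36, -0.76 to 0.04) to Dnaja1 (0.14, -0.09 to 0.37), and all 9 were bounded within 2-fold. Of 13 NRF2 targets and xenobiotic enzymes 8 were higher, from the glutathione transferase Gsta4 (-0.28, -0.59 to 0.04) to Por, the electron donor of the cytochromes P450 (0.64, -0.26 to 1.54), and 12 were bounded. All 12 mitochondrial stress genes were bounded within 1.5-fold, from Hspe1 (-0.15) to Oma1 (0.05).

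The translation machinery downstream of eIF2 was bounded in the same way. Of 24 translation factors 12 were higher with a median of 0.0001, between Eif4a2, an RNA helicase (7.91, 6.92 and 9.14 CPM against 7.16, 6.56 and 6.18 CPM, -0.27), and Eef2k, the elongation factor kinase (0.832, 1.73 and 1.16 CPM against 1.91, 1.68 and 1.41 CPM, 0.40). Neither interval excluded 0. Of 39 ribosomal protein genes 12 were higher, with a median of -0.04, from Rpl14 (-0.35, -0.84 to 0.15) to Rpl22 (0.74, 0.10 to 1.38). Rpl22 had 1.80, 1.73 and 2.06 CPM on placebo and 2.86, 4.05 and 2.39 CPM on 2BAct, at an unadjusted p of 0.0259. Ribosomal protein genes have many processed copies in the genome, so that unique reads cover only part of each message. The 10 mTORC1 regulators ran from Sesn1 (-0.18) to Rheb, the direct activator of mTORC1 (0.06, -0.09 to 0.21), and all were bounded within 2-fold.

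Myelin and sterol genes were described because white matter is what fails when eIF2B is mutated. None passed the threshold, as was true of all tested genes. Of 9 myelination genes 6 were higher and 0 were at an unadjusted p under 0.05. This count rested on single libraries, since 8 were higher without WT + placebo replicate 3 (median 0.16) and 2 without WT + 2BAct replicate 1 (median -0.05). Cnp, the myelin phosphodiesterase and the lowest, had 7.35, 8.08 and 14.6 CPM on placebo and 10.02, 8.80 and 8.29 CPM on 2BAct (-0.15, -0.59 to 0.30), and Ercc2 was the highest (0.57, -0.18 to 1.32). Of 10 tested oligodendrocyte markers, from Mobp to Ugt8a (0.15), 5 were higher, but 9 without WT + placebo replicate 3 (median 0.19) and 1 without WT + 2BAct replicate 1 (median -0.07). The count was 2 without WT + 2BAct replicate 3, WT + placebo replicate 1 or WT + placebo replicate 2. Mobp, a structural protein of compact myelin, had 430, 440 and 703 CPM on placebo and 414, 405 and 410 CPM on 2BAct, so that the groups did not overlap (log2 fold-change -0.36, -0.62 to -0.10, unadjusted p = 0.01 and adjusted p = 0.999 by edgeR). This value rested on WT + placebo replicate 3, without which it was -0.09. The summed oligodendrocyte markers of that library were 1418 CPM against 900 to 1000 CPM in the other 5. Of 16 sterol genes 6 were higher, with a median of -0.03, against 10 without WT + placebo replicate 3 and 2 without WT + placebo replicate 1. They ran from Acat2, acetyl-CoA acetyltransferase (2.01, 3.06 and 3.16 CPM against 2.31, 1.26 and 1.55 CPM, -0.70, -1.4 to -0.01), to Sqle, squalene epoxidase (1.80, 3.00 and 1.93 CPM against 2.39, 4.05 and 3.23 CPM, 0.52, -0.13 to 1.16).

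The transcripts of the mitochondrial genome leaned to one side. All 15 had higher estimates on 2BAct, with a median log2 fold-change of 0.17 against 0.0027 over all tested genes, although none passed the threshold. An unadjusted p under 0.05 was reached by 8 (53.3%, against 3.51%), and in 8 the diets did not overlap (53.3%, against 8.97%). They are cut from the same long precursors, so the 15 are not independent. mt-Nd5, a subunit of complex I, had 1208, 1231 and 1206 CPM on placebo and 1517, 1443 and 1396 CPM on 2BAct (0.26, 0.13 to 0.38, unadjusted p = 0.000467 and adjusted p = 0.922 by edgeR). The placebo libraries were close together and all below the 2BAct libraries. mt-Nd4l, also of complex I, gave the highest estimate, with 3.88, 4.62 and 4.77 CPM against 5.89, 7.40 and 6.68 CPM (0.59, 0.17 to 1.01). mt-Co1, the catalytic subunit of cytochrome oxidase, gave the lowest, with 13943, 14299 and 15440 CPM against 15240, 13821 and 15481 CPM (0.03, -0.11 to 0.17). Of the ribosomal RNAs of the mitochondrion, mt-Rnr2 took 18.8% to 21.4% of all unique reads, with a log2 fold-change of 0.05 (-0.11 to 0.21). The median of the list was 0.15 to 0.17 under other scalings of the libraries and 0.10 to 0.22 with 1 library left out, where 13 to 15 members were higher.

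Immediate early genes, which neurons switch on within minutes of firing, had higher estimates on 2BAct in most tested members. Of the 8 that could be tested 6 were higher on 2BAct, with a median log2 fold-change of 0.37, 3 were at an unadjusted p under 0.05 (37.5%, against 3.51% of all genes), and 4 were bounded within 2-fold. The median was 0.14 without WT + 2BAct replicate 1 and 0.54 without WT + placebo replicate 3, and with 1 library left out 1 to 4 members were at an unadjusted p under 0.05. Nr4a2, an orphan nuclear receptor and the highest, had 0.416, 0.115 and 0.708 CPM on placebo and 1.59, 0.978 and 0.984 CPM on 2BAct (1.54, 0.33 to 2.74, unadjusted p = 0.0131). Jund, the lowest, had 43.3, 46.3 and 49.8 CPM against 38.5, 46.4 and 38.8 CPM (-0.17, -0.37 to 0.03). Fos, chosen after its values were seen, had 24.7, 13.8 and 45.7 CPM on placebo and 52.8, 49.6 and 36 CPM on 2BAct. The highest placebo library, replicate 3, was above the lowest 2BAct library, and the log2 fold-change was 0.72 (0.20 to 1.24, unadjusted p = 0.00975 and adjusted p = 0.999 by edgeR). Without WT + placebo replicate 3 Fos reached an adjusted p of 0.0225 by edgeR with a log2 fold-change of 1.27. Leaving out this highest placebo library widens the difference, and Fos did not pass when any other 1 library was left out instead.

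**Figure D4:**
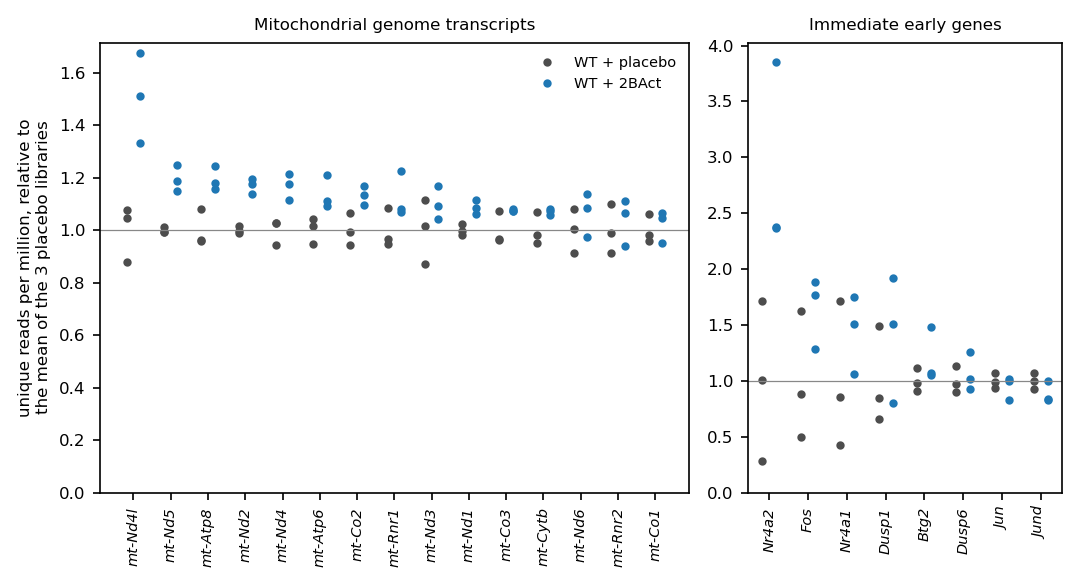
CPM of unique reads in each WT library relative to the mean of the 3 WT + placebo libraries (vertical axis, ratio), 1 point per library, for the 15 mitochondrial genome transcripts (left) and the 8 tested immediate early genes (right), ordered by log2 fold-change. The mitochondrial transcripts cluster tightly, with median log2 fold-change 0.17, while Nr4a2, Fos and Nr4a1 scatter widely among placebo libraries.

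Genes that follow stress hormones and the time of day were also listed, and an effect of handling on them was not tested. Of 7 glucocorticoid-responsive genes 1 was higher, Errfi1 (0.51, -0.54 to 1.56), and 2 were at an unadjusted p under 0.05 (28.6%, against 3.51% of all genes). With 1 library left out this count was 1 to 4. Tsc22d3 belongs to this list and to the curated ISR targets above, so the counts of the 2 lists are not independent. The median log2 fold-change of the 7 genes was -0.23. It was -0.05 without WT + placebo replicate 3, -0.35 without WT + placebo replicate 2, and -0.02 with 3 of 7 higher without both libraries of highest Slc17a6. The lowest was Per1, a clock gene that glucocorticoids induce, with 3.88, 2.77 and 3.35 CPM on placebo and 1.59, 2.23 and 2.11 CPM on 2BAct (-0.74, -1.35 to -0.13, unadjusted p = 0.0197). Its diets did not overlap, but the authors' abundances gave 0.04 on the log2 scale. Of 13 clock genes 7 were higher with a median of 0.01, up to the repressor Cry2 (0.25, -0.02 to 0.51).

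**Figure D5:**
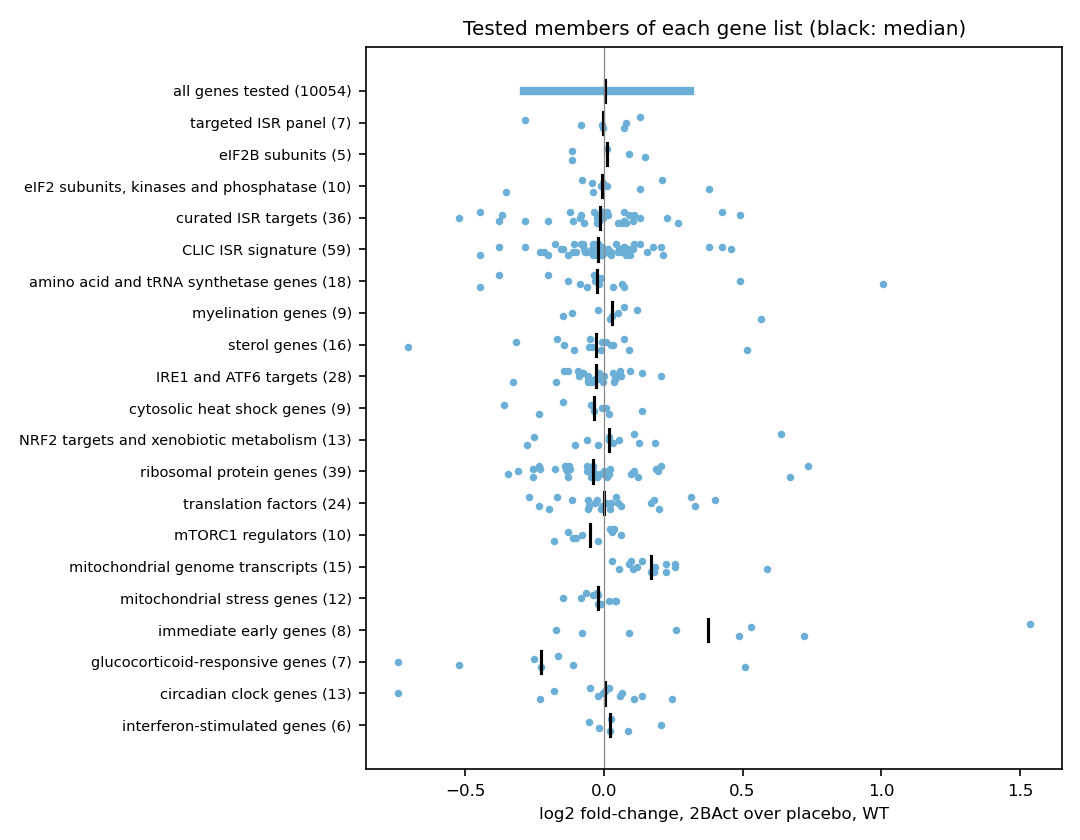
Log2 fold-change of 2BAct over placebo in WT mice (horizontal axis) for each tested member (points) of the gene lists, with the list median (black bar) and the number of tested members in brackets. The top bar spans the 5th to 95th percentile of all 10054 tested genes, -0.29 to 0.31, and all 15 mitochondrial genome transcripts lie above 0.

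The cell-type markers showed what the tissue held. Granule cells, the most numerous neurons of the cerebellum, were represented by all 16 of their markers, with summed levels of 4276 to 4987 CPM on placebo and 4298 to 5039 CPM on 2BAct, and 11 were higher, from Fat2 (-0.36) to Neurod1 (0.15, -0.01 to 0.30). This number was 5 without WT + 2BAct replicate 2, 7 without WT + 2BAct replicate 3 and 6 without WT + placebo replicate 3. Purkinje cell markers summed to 3684 to 4254 CPM and 3547 to 4027 CPM, with 1 of 11 higher, and ran from Gng13 (-0.95, -2.10 to 0.21) to Slc1a6 (0.05). The number higher was 4 without WT + 2BAct replicate 1, 3 without WT + placebo replicate 1 or 3, and 8 of 10 without both libraries of highest Slc17a6. Astrocyte and Bergmann glia markers summed to 2873 to 2946 CPM and 2710 to 2966 CPM, with 4 of 11 higher. They ran from A2m, with 164, 159 and 128.5 CPM against 129.3, 124 and 145 CPM (-0.18, -0.36 to 0.003), to Gfap, with 79.2, 87.9 and 82.2 CPM against 96.9, 91.8 and 86.3 CPM (0.14, -0.02 to 0.30). Neither passed the threshold.

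None of the remaining markers passed the threshold, as was true of all tested genes. Interneuron markers ran from Slc32a1 (-0.07) to Kit (0.25), microglial markers from C1qb (-0.23) to C1qa (0.02), endothelial and pericyte markers from Pdgfrb (-0.45) to Rgs5 (0.19), meningeal markers from Ptgds (-0.20) to Dcn (0.64), and red blood cell markers from Hba-a2 (-0.25) to Hbb-bs (-0.08). At an unadjusted p under 0.05 were 2 of the 6 endothelial and pericyte markers (33.3%, against 3.51% of all genes). They were Rgs5, higher, and the tight junction gene Cldn5 (-0.31), lower. Of these 6 markers 2 were higher, with a median log2 fold-change of -0.18. In 1 of the 6 meningeal markers (16.7%, against 8.97% of all genes), Slc13a4 (0.41), the diets did not overlap. Cldn5 and Slc13a4 were named after their values were seen. Oligodendrocyte precursors and ependyma had 1 tested marker each, Ptprz1 (0.08) and Tppp3 (0.25). Ttr, transthyretin, which the choroid plexus secretes, varied within each diet, at 185, 643 and 210 CPM on placebo and 541, 232 and 689 CPM on 2BAct (0.49, -0.23 to 1.22), and the other choroid plexus marker tested, Enpp2, gave 0.03. Xist, transcribed from the inactive X chromosome of females, was found at 32224 to 44608 unique reads in all 6 libraries (0.06, -0.07 to 0.19).

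The genes of smallest p were led by short non-coding RNAs. Among the 8 higher ones, which also held mt-Nd5, was the small nucleolar RNA Gm23262 (chromosome 7, 111076060 to 111076227), with 47.7, 37.2 and 40.7 CPM on placebo and 53.3, 60.6 and 57.3 CPM on 2BAct (log2 fold-change 0.45, 0.25 to 0.65, unadjusted p = 0.000155 and adjusted p = 0.922 by edgeR). Gm24514, annotated as a miscellaneous RNA, had 19.3, 16.5 and 13.3 CPM against 24.0, 28.8 and 21.2 CPM (0.60, 0.30 to 0.89). In both the diets did not overlap (8.97% of all genes), which their choice by smallest p makes likely. Gm22513 (chr12:54696782-54696945, plus strand) and Gm23238 (chr19:18732741-18732904, plus strand) carry the sequence of U1, the small nuclear RNA that pairs with the 5′ splice site. They are printed from the GENCODE vM21 transcripts, with the 5 of 164 bases at which they differ in capitals, because a 97.0% identity leaves few reads that tell them apart and their separate values are uncertain.
Gm22513: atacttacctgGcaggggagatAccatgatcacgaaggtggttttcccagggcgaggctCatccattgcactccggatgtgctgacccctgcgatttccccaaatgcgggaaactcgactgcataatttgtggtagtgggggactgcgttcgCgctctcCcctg
Gm23238: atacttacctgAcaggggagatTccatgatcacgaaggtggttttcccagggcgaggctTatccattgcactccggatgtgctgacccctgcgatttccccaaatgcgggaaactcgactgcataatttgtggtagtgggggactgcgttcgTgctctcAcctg

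Gm22513 had 481, 369 and 329 CPM on placebo and 567, 625 and 472 CPM on 2BAct (0.50, 0.27 to 0.73), and Gm23238 had 21.8, 13.7 and 11.3 CPM against 30.1, 24.3 and 21.1 CPM (0.69, 0.32 to 1.07). In both, 1 placebo library, replicate 1, overlapped the 2BAct range, and without it both passed the threshold at an adjusted p of 0.0143 by edgeR. It was the highest placebo library of both, so leaving it out widens the difference. Neither gene passed when any other library was left out instead. The processed pseudogene Gm14519 had 1.248, 0.808 and 1.55 CPM against 3.02, 2.93 and 3.23 CPM (1.36, 0.66 to 2.06). Gpr137b, a lysosomal membrane protein, had 18.2, 16.8 and 17.4 CPM against 22.7, 24.4 and 23.6 CPM (0.44, 0.21 to 0.66). Pdlim5, a cytoskeletal scaffold, had 0, 4 and 0 unique reads on placebo and 13, 13 and 11 on 2BAct, the largest log2 fold-change of all (3.42, 1.28 to 5.57). The authors' abundances, which also use reads shared between transcripts, gave 0.16 for Pdlim5 and 0.01 for Gpr137b on the log2 scale.

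Among the 8 lower genes of smallest p, Phgdh came first. Atp5c1, the gamma subunit of ATP synthase, had 7.35, 9 and 8.50 CPM on placebo and 4.77, 3.49 and 6.61 CPM on 2BAct (-0.74, -1.19 to -0.29), but -0.03 by the authors' abundances. The histone gene Hist1h4j had 10.4, 9.93 and 9.66 CPM against 6.52, 6.98 and 7.17 CPM (-0.53, -0.86 to -0.21) and -0.55 by the abundances. Rnf144a, a ubiquitin ligase, had 14, 12 and 12 unique reads against 2, 4 and 2 (-2.05, -3.50 to -0.61), and 0.02 by the abundances. Gm23973 (-0.26), Sbf1 (-0.37), Ttll3 (-0.43) and Tsc22d4 (-0.25) completed the 8, and in all of them the diets did not overlap (8.97% of all genes). All 8 were picked by their p in this comparison, which makes such separation likely and no further evidence. The adjusted p of each was 0.999.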

How the data were processed

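Cerebellum RNA was depleted of ribosomal RNA and made into stranded libraries. Per the study's methods and the submitters' processing notes, the authors aligned reads with STAR 2.5.3a to mm10 and quantified Gencode and UCSC transcripts with MMSEQ. The values used were the deposited counts of unique reads and the deposited natural log of TPM, which the authors' software estimates from all reads. The authors' own comparison columns, which hold fold changes and posterior probabilities, were not used.

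Counts were tested with edgeR 4.0.16 in R 4.3.3 (quasi-likelihood test, TMM scaling, filterByExpr at 10 reads and 15 in total, Benjamini-Hochberg threshold 0.05), on the 6 WT libraries, without a block. The 95% interval is the estimate plus or minus the t quantile times its standard error. The interaction used all 12 female libraries. limma 3.58.1 and DESeq2 1.42.0 were alternatives. Named genes were the tested members of the ISR panel, the eIF2B and eIF2 lists, the highest and lowest member of each other list, the 8 higher and 8 lower genes of smallest p, the 3 widest and 3 narrowest intervals, and a few picked later, marked as such. The members and lists were chosen with earlier results of these data known. Between 87.3% and 88.1% of nonzero counts per library were even, so mates seem to be counted separately. Halved counts were therefore an alternative. The labels share replicate numbers, but same-numbered deviations correlated at -0.11, -0.01 and -0.05, so the numbers were not used as pairs. With 3 libraries per diet this check cannot settle whether any mice were paired. The fit was tested on simulated data. Depth limits precision as given by the intervals. Promoter sequences are from RefSeq. Some gene values are not reported here.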

Additional observations from a re-analysis of the deposited data

Results flagged for a closer look

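In 16 genes the diet effect differed between R191H and WT mice by the interaction test of edgeR, given here as the log2 difference, R191H minus WT. The difference was negative for 9 genes: Nupr1 (-2.64), Atf5 (-2.34), Trib3 (-2.31), Ccnd2 (-1.76), Slc7a5 (-1.52), Slc7a11 (-1.39), Tril (-0.82), Cebpg (-0.58) and Eprs (-0.51). It was positive for 7: Fabp7 (1.28), A2m (1.21), Ntsr2 (0.91), Agt (0.74), Rflnb (0.66), Slc25a18 (0.58) and Sparc (0.49). In WT mice alone the log2 fold-changes of these 16 genes ran from -0.28 (Trib3) to 0.43 (Nupr1), and none passed the threshold. In R191H mice alone the log2 fold-change was, for example, -1.28 for Slc7a11 and 1.03 for A2m.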

How the results depend on the processing

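The count of 0 genes past the threshold held under other scalings, filters, dispersions, halved counts, DESeq2, limma-voom and the fit of all 12 libraries. It was 34 with limma on the natural log of TPM, with libraries centred, and 142 on log2(TPM + 1), without centring. The median log2 fold-change of all genes in the latter fit was 0.09. Most of its 142 genes had a whole diet group at a natural log of TPM of -1.2. The number of genes past the threshold ranged from 0 to 2 when 1 library was left out: 2 without WT + placebo replicate 1 (Gm23238 and Gm22513) and 1 without WT + placebo replicate 3 (Fos). Without both libraries with the highest Slc17a6, an alternative chosen after seeing the data, it was 1 (Fos). The TPM fit without genes at the value of -1.2 was also chosen after seeing the data. The genes bounded within 2-fold numbered 5109 of 5595 among genes of at least 1 TPM, fewer because fewer were tested, and 8875 to 8963 with 1 library left out. The interaction gave 3 genes among those of at least 1 TPM, 25 with DESeq2, and 12 to 19 with 1 library left out; the cause was not tested. With the replicate block 0 genes passed, 9099 were bounded within 2-fold and the interaction gave 14, and no 2BAct library correlated best with its own number. Of 2151 values of named genes under 21 alternatives, 190 moved by more than their standard error and 7 passed the threshold.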

Other observations

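Nuclear genes of oxidative phosphorylation, a group chosen after values were seen, did not share the direction of the mitochondrial genome. Of 82 tested, 21 had higher and 61 lower estimates on 2BAct in WT mice, with a median log2 fold-change of -0.07, and 3 were at an unadjusted p under 0.05, which is near the 3.51% of all genes. Atp5c1 was the lowest (-0.74).

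By annotated type, small nucleolar and small nuclear RNAs leaned the other way, but so did some types that are not short RNAs. Of 35 small nucleolar RNAs 80% were higher on 2BAct with a median log2 fold-change of 0.31, and of 28 small nuclear RNAs 78.6% were higher with a median of 0.22. Of 163 processed pseudogenes 74.2% were higher (median 0.11), while 8745 protein-coding genes were split at 49.3% higher. The share was 73.1% of 52 sense intronic transcripts and 65.8% of 383 genes of the annotated type TEC. Of 22 miscellaneous RNAs 54.5% were higher (median 0.06). An unadjusted p under 0.05 was reached by 14.3% of the small nucleolar RNAs (5 higher, 0 lower), against 3.51% of all genes. The share was 25% of the small nuclear RNAs, in both directions (4 higher, 3 lower). None of these RNAs passed the threshold. Many are copies of each other, so their unique reads are uncertain.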
